A study of Mus musculus with 11 samples.

Results

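Adrenergic receptors are the cell-surface receptors for noradrenaline and adrenaline, and DNA methylation was examined across 8 genes of this family in the newborn mouse pancreas. The genes were taken by symbol from the deposited tables, namely Adra1a, Adra1b, Adra1d, Adra2a, Adra2b, Adra2c, Adrb1 and Adrb3, that is, 8 of 25802 genes. Of these 8 genes, 6 had a promoter among the 24391 promoters measured, and Adra1b and Adrb3 had none. A total of 9 of 14841 CpG islands and 35 of 259716 adjoining regions of 5000 bp overlapped the genes or their promoter windows by at least 1 bp. Methylation was measured by reduced representation bisulfite sequencing (RRBS), which reads CpG sites next to the cut sites of the enzymes MspI (CCGG) and TaqI (TCGA), in whole pancreas at postnatal day 0. All 11 mice were wild-type C57BL/6N. Pregnant dams received amphetamine at 10 mg/kg body weight on embryonic days 14.5, 15.5 and 16.5, giving 5 Amphetamine offspring (3 females and 2 males), and 6 Saline offspring (3 females and 3 males) came from dams given saline. The same 11 mice made up 6 females and 5 males. The labels do not say which mice shared a dam, so that p-values measure the spread between these mice, some of which may be littermates. Whole pancreas holds exocrine, endocrine, vascular, nerve and immune cells, and a change of methylation within a cell type cannot be told apart from a change in the share of that cell type.

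Noradrenaline is released by sympathetic nerves, and the receptors sort into classes by the G protein they use. The alpha-1 receptors (Adra1a, Adra1b, Adra1d) act through Gq and phospholipase C and raise calcium. The alpha-2 receptors (Adra2a, Adra2b, Adra2c) act through Gi and lower cyclic AMP, and in beta cells of the islet the alpha-2A receptor is known for restraining insulin secretion. The beta receptors (Adrb1, Adrb3) act through Gs and raise cyclic AMP. Amphetamine is known to release noradrenaline from nerve endings by reversing its transporter. At most CpG-rich starts of genes the cytosines are unmethylated, whereas CpG-poor gene bodies and flanks are mostly methylated.

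The sequences upstream of the starts show how unlike the family members are in CpG content, and methylation was measured at CpG sites. Of the 8 genes, 5 matched the RefSeq promoter sequences of GRCm38.p6 (the assembly of mm10), with 6 starts between them. For 4 of these starts the 250 bases before the start are shown 5′ to 3′ on the strand of the gene. Each CG is in capitals. Both starts of Adra1b are shown because the 5000 bp regions holding them differed widely in methylation. Adra2b and Adrb1 are shown as CpG-rich members.
Adra1b, distal start, chr11:43901238-43901487, minus strand: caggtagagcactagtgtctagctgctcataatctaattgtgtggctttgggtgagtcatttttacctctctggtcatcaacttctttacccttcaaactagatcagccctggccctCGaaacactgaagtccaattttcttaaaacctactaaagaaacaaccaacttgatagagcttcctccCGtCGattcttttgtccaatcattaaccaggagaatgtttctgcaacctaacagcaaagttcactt
Adra1b, internal start, chr11:43836490-43836739, minus strand: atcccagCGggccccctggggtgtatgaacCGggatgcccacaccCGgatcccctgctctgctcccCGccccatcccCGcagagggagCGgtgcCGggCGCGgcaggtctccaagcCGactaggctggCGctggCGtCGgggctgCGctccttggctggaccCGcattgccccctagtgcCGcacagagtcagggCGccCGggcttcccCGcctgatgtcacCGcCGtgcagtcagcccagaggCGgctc
Adra2b, chr2:127362929-127363178, plus strand: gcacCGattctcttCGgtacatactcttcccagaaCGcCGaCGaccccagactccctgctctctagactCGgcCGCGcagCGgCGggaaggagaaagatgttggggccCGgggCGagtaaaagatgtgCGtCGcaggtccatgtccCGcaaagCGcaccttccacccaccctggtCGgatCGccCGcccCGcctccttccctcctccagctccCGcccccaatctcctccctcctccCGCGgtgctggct
Adrb1, chr19:56721867-56722116, plus strand: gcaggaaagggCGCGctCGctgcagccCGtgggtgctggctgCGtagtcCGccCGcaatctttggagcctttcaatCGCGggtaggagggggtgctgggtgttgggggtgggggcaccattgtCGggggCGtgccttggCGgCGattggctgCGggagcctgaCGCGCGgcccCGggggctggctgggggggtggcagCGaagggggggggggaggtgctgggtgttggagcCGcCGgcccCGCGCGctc
The distal Adra1b stretch held 3 CG, at a GC content of 41.6%, and the internal one held 22, at 72.8%. The Adra2b stretch held 23 CG and the Adrb1 stretch 24. Among 32851 such RefSeq sequences the median was 6 CG, 37.8% held 3 or fewer and 86.7% held 22 or fewer. The internal Adra1b start lies 64721 bp downstream of the gene start in the tables, and the stretch before it shares 184 bp with a CpG island. The MspI site CCGG, which reads the same on both strands, was present 4 times in the internal Adra1b stretch and 0 times in the distal one, and 47.1% of all these sequences held it. The TaqI site TCGA was present 2 times in the distal stretch, and 18.5% of all these sequences held it. These are counts of letters and do not show that a site was cut.

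For most members the promoter, from 1500 bp before to 500 bp after the gene start in the tables, was nearly free of methylation. In Saline mice the mean promoter methylation was 4.54% for Adra1d, 1.78% for Adra2a, 1.86% for Adra2b, 0.392% for Adra2c and 1.79% for Adrb1. The median over 24382 promoters was 8.14%, and Adra2c lay above only 3.2% of them. Adra1a stood apart from these 5 genes, with a Saline mean of 16.7% (SD 40.8, n = 6), and its promoter was also the least covered. The deposited lowest, highest and mean values show that 5 of the 6 Saline mice were at 0% and 1 Saline male at 100%. All 4 Amphetamine mice with reads at the Adra1a promoter were at 0%. Mean coverage there was 6.2 in Amphetamine mice, with at most 8 in any of them, against 62.8 in Saline mice, with a range of 4 to 149. The Adra1b and Adrb3 promoter windows hold 8 and 4 CpG sites within 50 bases of a cut site. The median promoter in the table holds 31 such sites, and 14.2% of promoters hold fewer than 8.

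**Figure D1:**
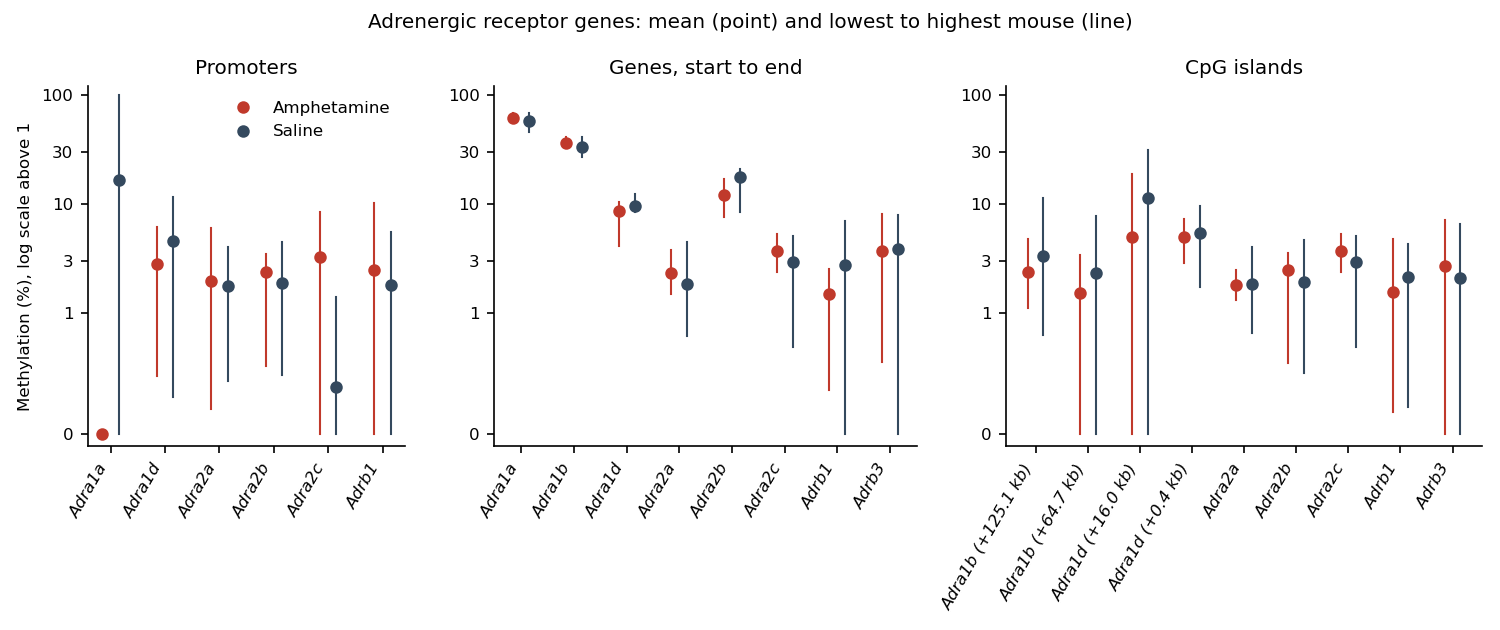
Methylation in percent, on a log scale above 1%, of the promoters, whole genes and CpG islands of the 8 adrenergic receptor genes. Points are group means of Amphetamine (red) and Saline (dark blue) mice, and lines run from the lowest to the highest mouse. Within each region the lines of both groups overlap or touch, and Adra1a and Adra1b are the most methylated genes when read from start to end.

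Whole genes separated the family more than promoters did. Read from start to end, Adra1a (98212 bp) was at 61.7% ± 5.25 (SD, n = 5) in Amphetamine and 57.1% ± 7.23 (SD, n = 6) in Saline mice. Adra1b (126605 bp) was at 36.1% ± 3.17 and 33.1% ± 4.53 in the same order. These are the longest members of the family. Adra2b followed at 12.1% ± 4.29 and 17.6% ± 4.58, then Adra1d at 8.56% ± 2.64 and 9.57% ± 1.63. Adrb3, Adra2c, Adrb1 and Adra2a lay between 1.49% and 3.84% in both groups, and their ranges overlapped. The median gene in the table was at 52.7% in Saline mice, and 13% of genes were under 10%, as were 5 of the 8 receptor genes. Adra2a, the receptor that lowers cyclic AMP in beta cells, was above 3.75% of all genes.

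CpG islands lay at 7 of the 8 genes, Adra1a being the exception. At least 200 bp of an island lay within the promoter window of 5 genes (Adra1d, Adra2a, Adra2b, Adra2c and Adrb1). In Saline mice 8 of the 9 islands were between 1.86% and 5.39%. The other was the Adra1d island in the coding sequence of the last exon (chr2:131546053-131546433), at 11.2% ± 11.5 (SD, n = 6). That island was thinly covered, at a mean of 83 in Saline mice with a lowest value of 4, against 708 at the Adra1d island over the gene start (chr2:131561115-131562649). The Adrb3 island (chr8:27227312-27228243) lies in coding sequence and does not reach the promoter window, and it was at 2.08% ± 2.51 in Saline mice. At Adra2c the gene and its island (chr5:35278830-35281047) had identical values and coverage.

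Along Adra1b the low methylation was found away from the annotated gene start. The 5000 bp region that holds the distal start (chr11:43900001-43905000) was at 100% ± 0 (SD, n = 5) in Amphetamine and 95.3% ± 10.4 (SD, n = 5) in Saline mice, at mean coverages of 19.6 and 19.5. The promoter window of that start was not among the promoters measured, so that these values cannot be read as methylation of the start itself. The region over the internal start (chr11:43835001-43840000) was at 3.23% ± 3.41 (SD, n = 5) and 4.56% ± 2.43 (SD, n = 6), at coverages of 336 and 372. It ranged from 0% to 8.64% in Amphetamine and from 2.15% to 8.93% in Saline mice, so that every mouse was under 10% there. The region over the last coding exon (chr11:43775001-43780000) was at 6.95% ± 3.93 and 8.69% ± 8.54. In the other 12 regions of Adra1b, introns for the most part, the Saline means ran from 53.3% to 97.3%. The internal start carried an island (chr11:43836437-43836673) at 1.52% ± 1.53 in Amphetamine and 2.33% ± 3.17 in Saline mice. The last coding exon carried another (chr11:43775820-43776340), at 2.36% ± 1.47 and 3.30% ± 4.02.

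At Adra1a the low stretch sat at the annotated start itself. The region that holds the start (chr14:66635001-66640000, with coding sequence and UTR) was at 8.13% ± 5.82 in Amphetamine and 9.29% ± 7.28 in Saline mice. The region before it (chr14:66630001-66635000) was at 80.8% ± 13.4 and 81.3% ± 5.08, and the intron after it (chr14:66640001-66645000) at 84.3% ± 7.86 and 91.7% ± 8.50. No mouse at the start region reached 20%, and no mouse in the flanking regions fell below 60%.

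**Figure D2:**
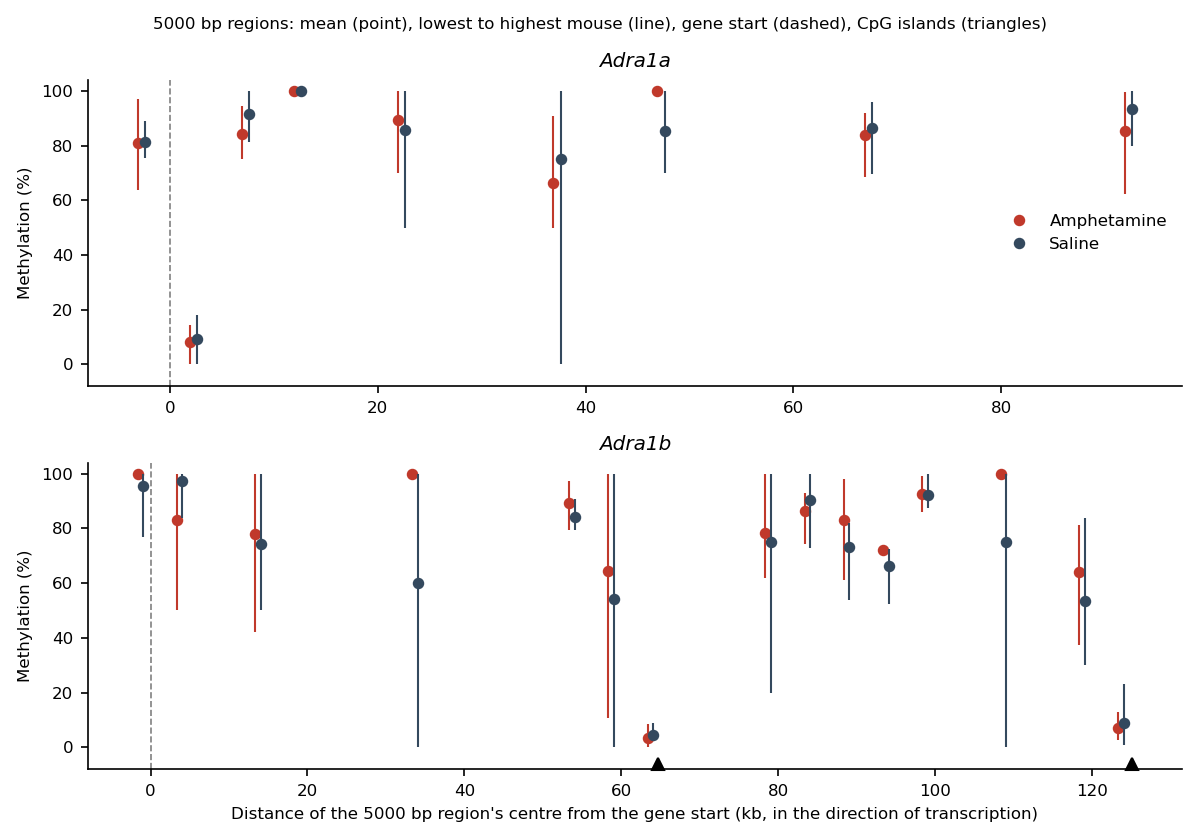
Methylation in percent of the 5000 bp regions along Adra1a (top) and Adra1b (bottom), against the distance in kb of each region's centre from the gene start in the tables. Points are the means of Amphetamine (red) and Saline (dark blue) mice, lines run from the lowest to the highest mouse, the dashed line marks the gene start and triangles mark CpG islands. Adra1a is low only in the region that holds its start. Adra1b is at 95.3% or more in the region that holds its annotated start, and low at 63.7 kb and 123.7 kb. The promoter window of the annotated Adra1b start was not among the promoters measured.

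Across all 35 regions of the family, methylation followed CpG density. The 11 regions with at least 2 CpG sites per 100 bp were all under 20% in Saline mice, from 1.84% to 19.2%, with a median of 5.39%. The 24 sparser regions ran from 4.45% to 100%, with a median of 78.3%, and 1 of them was under 20%, the flank of Adra2a (chr19:54040001-54045000). Of 17387 regions genome-wide with that density 57% were under 20%, and of 242154 sparser ones 2.94% were. Both limits were set after the values were seen, and regions of 1 gene are not independent.

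**Figure D3:**
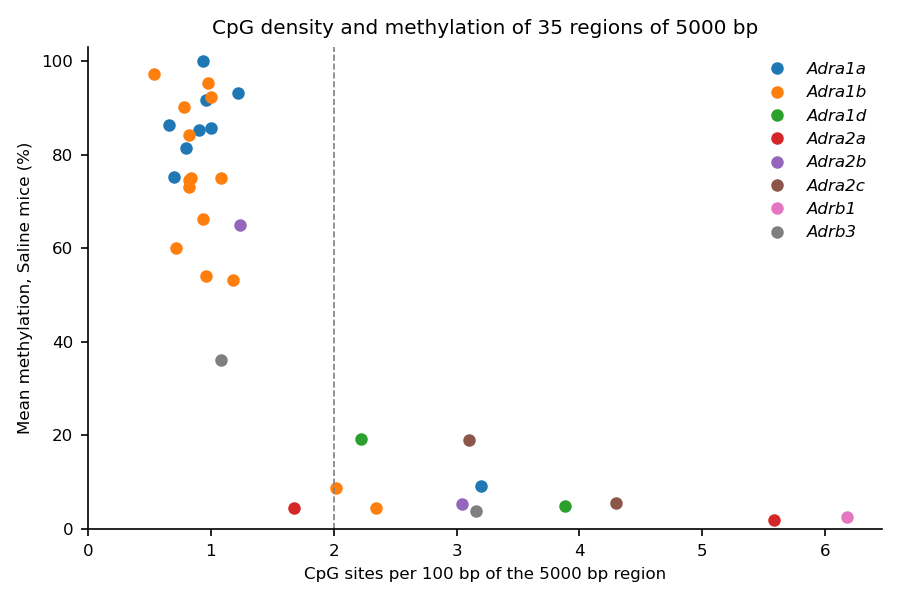
Mean methylation in percent in Saline mice against CpG sites per 100 bp for the 35 regions of 5000 bp at adrenergic receptor genes, coloured by gene. The dashed line marks 2 CpG sites per 100 bp, to the right of which the 11 regions lie at or below 19.2%.

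The first comparison asked whether exposure to amphetamine in utero changed methylation at these genes. No region of any of the 8 genes passed an adjusted p of 0.05 (limma's moderated test rebuilt from group means and SDs, two-sided, Benjamini-Hochberg over each table). The counts were 0 of 6 promoters, 0 of 8 genes, 0 of 9 islands and 0 of 35 regions of 5000 bp. Among all regions measured, 0.0164% of promoters, 0.0116% of genes, 0.0135% of islands and 0.0185% of 5000 bp regions passed. At an unadjusted p under 0.05 the counts were 0, 0, 0 and 1, against 4.11%, 4.38%, 4.1% and 4.4% of all promoters, genes, islands and regions. The ranges of the groups were apart in none of the receptor regions with reads in all mice, while 0.395% of all promoters, 0.312% of genes, 0.443% of islands and 0.351% of regions had ranges apart. The smallest adjusted p among the receptor promoters was 0.958, among genes 0.984, among islands 0.923 and among 5000 bp regions 0.965.

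Of the alpha-2 receptor promoters, which serve the class that lowers cyclic AMP, Adra2c had the largest difference. It ranged from 0% to 8.44% in Amphetamine mice (mean 3.22% ± 3.52, SD, n = 5) and from 0% to 1.40% in Saline mice (mean 0.392% ± 0.623, SD, n = 6). The groups overlapped at 0%, and the highest value belonged to an Amphetamine male. The difference was 2.83 percentage points (95% confidence interval -0.382 to 6.05, limma adjusted p = 0.958), and leaving out 1 mouse could bring it to between 1.53 and 3.64. Mean coverage at this promoter was 236 and 259. Adra2a differed by 0.187 points (interval -2.36 to 2.73) and Adra2b by 0.490 points (interval -1.55 to 2.53).

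Over the whole gene it was Adra2b that differed most among the alpha-2 receptors. Methylation ran from 7.60% to 16.9% in Amphetamine mice and from 8.40% to 20.9% in Saline mice. The ranges overlapped only through the lowest Saline mouse, which lay far below the others of its group. By the deposited mean, SD and extremes, the other Saline mice lay above the highest Amphetamine mouse. Leaving out 1 mouse could bring the difference to between -7.41 and -4.45 points. The difference was -5.57 percentage points (95% confidence interval -11.4 to 0.314, limma unadjusted p = 0.0612, adjusted p = 0.984), with mean coverages of 324 and 246. The Adra2b island (chr2:127362916-127363630) was at 2.47% in Amphetamine and 1.94% in Saline mice, a difference of 0.528 points (interval -1.43 to 2.49). Adra2a and Adra2c as whole genes differed by 0.465 points (interval -1.81 to 2.74) and 0.771 points (interval -1.61 to 3.15).

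The alpha-1 receptors, which act through Gq, held the largest differences of the family among promoters, islands and 5000 bp regions, in percentage points, with ranges that overlapped or met in each region. Adra1a as a gene differed by 4.57 points (95% confidence interval -3.72 to 12.9), Adra1b by 2.99 points (interval -2.33 to 8.31) and Adra1d by -1.01 points (interval -4.21 to 2.19), the last with bounds of -1.49 to 0.0990 when 1 mouse is left out. The Adra1a promoter differed by -16.7 points (interval -61.7 to 28.4), and without the Saline male at 100% the difference was 0. The only receptor region with an unadjusted p under 0.05 was an intronic region of Adra1a (chr14:66680001-66685000), with a centre 47.2 kb after the start. All 5 Amphetamine mice were at 100% there, and the 6 Saline mice ran from 70% to 100%, with a mean of 85.2% ± 12.9 (SD). The groups met at 100%, and the difference was 14.8 points (interval 2.22 to 27.3, limma unadjusted p = 0.0255, adjusted p = 0.965). Mean coverage was 57.6 in Amphetamine mice, as low as 8 in 1 of them, and 77 in Saline mice, and its part in the result was not tested. The Adra1d island in the last exon was at 4.96% ± 7.93 and 11.2% ± 11.5, a difference of -6.28 points (interval -19.3 to 6.73), with bounds of -9.77 to -2.25 when 1 mouse is left out.

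At the beta receptors, which act through Gs, the genes themselves and the Adrb1 promoter were nearly unmethylated in both groups. The Adrb1 promoter was at 2.49% ± 4.32 in Amphetamine mice, from 0% to 10.2%, and at 1.79% ± 2.16 in Saline mice, from 0% to 5.50%. Without 1 mouse the difference could run from -1.23 to 1.44 points, so that its direction rested on single mice. As a gene Adrb1 was at 1.49% ± 1.06 and 2.77% ± 2.71, a difference of -1.28 points (95% confidence interval -4.49 to 1.92). Mean coverage of the Adrb1 gene was 706 in Amphetamine against 437 in Saline mice, the highest ratio among the 8 whole genes. As a gene Adrb3 was at 3.69% ± 3.16 and 3.84% ± 2.94, a difference of -0.157 points (interval -4.36 to 4.05). The region upstream of Adrb3 (chr8:27230001-27235000) shares 1088 bp with its promoter window, which was not among the promoters measured. That region was at 35.3% ± 12.6 in Amphetamine and 36.2% ± 17.8 in Saline mice, values that cannot be read as those of the promoter. Over 5000 bp regions the sum of coverage was 1.24 times as high in Amphetamine as in Saline mice, and for the receptor genes the ratio ran from 1.03 to 1.61. The part of coverage in these values was not tested.

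**Figure D4:**
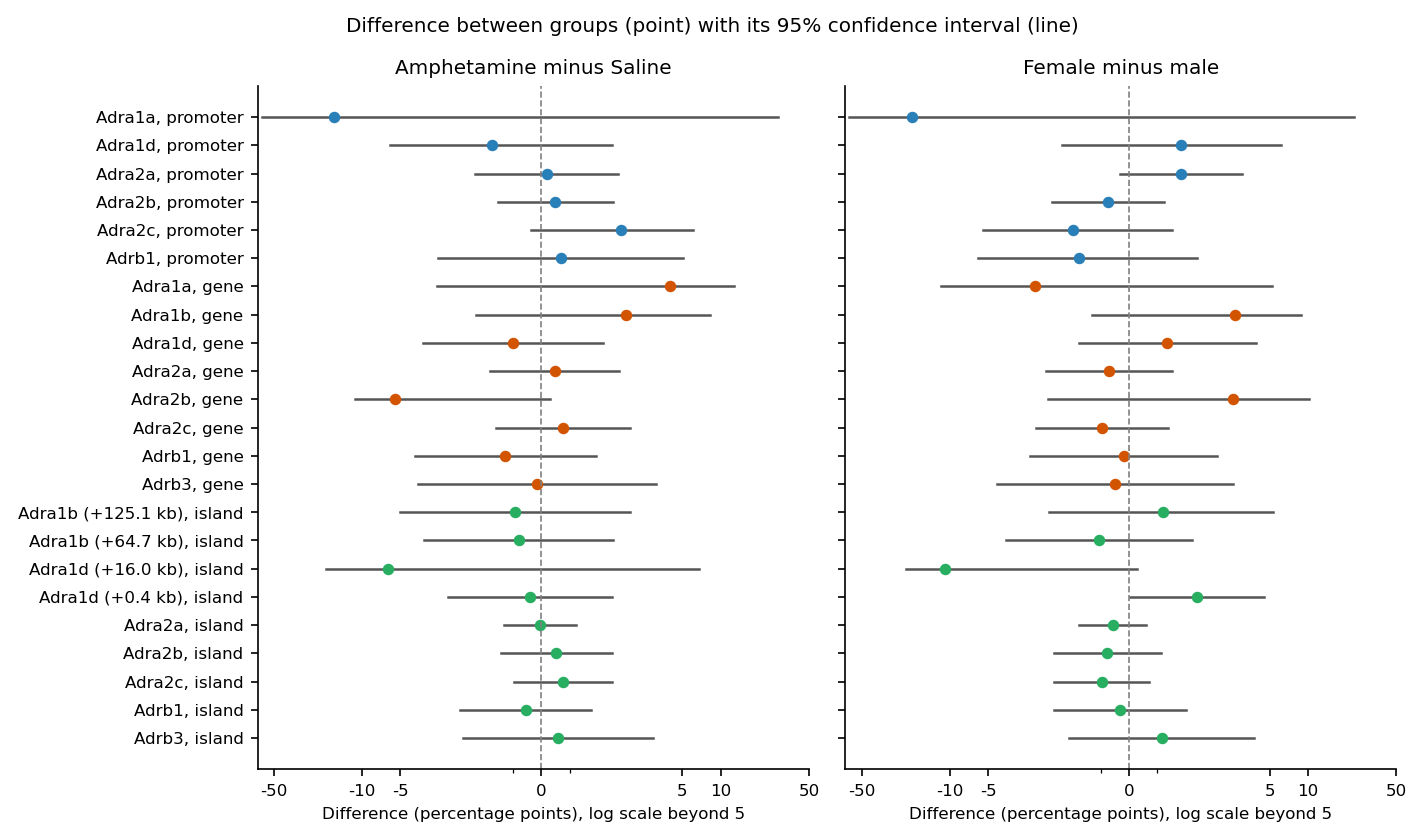
Difference in methylation, in percentage points on a scale that is logarithmic beyond 5, for each promoter, gene and CpG island of the family between Amphetamine and Saline mice (left) and between females and males (right). Points are differences and lines are 95% confidence intervals. Every interval on the left spans 0, and on the right only that of the Adra1d island at its start, from 0.0464 to 4.78, does not.

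The direction of the differences was mixed. Of the 6 promoters 4 were higher and 2 lower in Amphetamine mice, of the 8 genes 4 and 4, of the 9 islands 3 and 6, and of the 35 regions 15 and 19, with 1 equal. Among all tested, 48.6% of promoters, 47.9% of genes, 48.7% of islands and 48% of 5000 bp regions were higher in Amphetamine mice. The median difference of the 8 genes was 0.154 points, against -0.0862 over all 25779 genes tested. Along Adra1b 11 of 15 regions were higher in Amphetamine mice, and along Adra1a 2 of 9, with 6 lower. None of those at Adra1b passed an unadjusted p of 0.05, the largest difference being 40 points at a region read in 4 Amphetamine and 5 Saline mice, with mean coverages of 6.2 and 6.5 (chr11:43865001-43870000). Neighbouring regions share mice and are not independent.

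The second comparison asked whether the sexes differed at these genes. The sex labels were checked on the X chromosome, where the median island was at 28.1% in females and 2.52% in males, and the ranges were apart at 193 of 325 islands with reads in all mice. On the Y chromosome the coverage of 5000 bp regions in females summed to 69.8% of that in males. All 8 receptor genes are autosomal. None of their promoters, genes, islands or 5000 bp regions passed an adjusted p of 0.05 between females and males, while 0.564%, 0.373%, 1.09% and 0.076% of all regions of these classes did. On autosomes alone the shares were 0.013%, 0.00408%, 0.00694% and 0.03%. At an unadjusted p under 0.05 the counts were 0 of 6, 0 of 8, 1 of 9 and 2 of 35, against 6.07%, 6.5%, 6.65% and 5.59% of all regions and 4.67%, 5.53%, 4.84% and 5.26% of autosomal ones. No receptor region with reads in all mice had ranges apart between the sexes, against 1.55%, 1.03%, 1.91% and 0.626% of all and 0.462%, 0.449%, 0.492% and 0.469% of autosomal regions.

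The region over the Adra1a start had the smallest p between the sexes. The 6 females ran from 0% to 8.14% (mean 4.51% ± 3.47, SD) and the 5 males from 5.55% to 18.2% (mean 13.9% ± 5.11, SD). The ranges overlapped between 5.55% and 8.14%, and the highest value was that of a Saline male. The difference was -9.36 points (95% confidence interval -15.4 to -3.36, limma unadjusted p = 0.00592, adjusted p = 0.669, from 0.629 to 0.847 over the alternative settings). Mean coverage was 253 in females and 204 in males. The same region was at 8.13% and 9.29% in Amphetamine and Saline mice, a difference of -1.16 points.

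For Adra1d the differences between the sexes had opposite signs at its start and its last exon. The island over the start was at 6.31% ± 1.80 in females, from 4.73% to 9.46%, and at 3.90% ± 1.80 in males, from 1.73% to 6.27%. That difference was 2.41 points (95% confidence interval 0.0464 to 4.78, limma unadjusted p = 0.0464, adjusted p = 0.743), and leaving out 1 mouse could bring it to between 1.78 and 3.01. This island overlaps the gene Gm14285, and its reads cannot be assigned to either gene. The last-exon island was at 3.38% ± 4.05 in females and at 14.4% ± 12.4 in males, which ran from 0% to 31.4%, and the ranges overlapped. The difference there was -11.0 points (interval -22.3 to 0.294, limma unadjusted p = 0.0551, adjusted p = 0.770), at mean coverages of 77.5 and 76.2. Whether the islands differ from each other in this respect was not tested.

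At the 3′ end of Adra2b (chr2:127365001-127370000, UTR) females were at 75.6% ± 16.4, from 53.3% to 100%, and males at 43.7% ± 24.7, from 14.0% to 75.0%. The difference was 31.9 points (95% confidence interval 5.57 to 58.2, limma unadjusted p = 0.0223, adjusted p = 0.843), with overlap between 53.3% and 75.0%. Mean coverage was 29 in females and 41 in males, with a lowest value of 3 and 4. The Adra2b start region (chr2:127360001-127365000) was at 4.68% ± 1.59 and 5.47% ± 1.66. In females the Adra2a promoter averaged 2.71% ± 2.05, against 0.855% ± 0.346 in males, a difference of 1.85 points (interval -0.324 to 4.03, limma adjusted p = 0.887). All 5 males lay between 0.441% and 1.28%, within the female range of 0.207% to 6.05%. The region before it (chr19:54040001-54045000) was at 8.97% ± 8.15 in females and 0.993% ± 1.42 in males (limma unadjusted p = 0.0561, adjusted p = 0.898).

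The spread between mice at Adra2c went either way. The 6 females lay between 2.38% and 3.34% over the gene (mean 2.86% ± 0.360, SD), whereas the 5 males ran from 0.716% to 5.25% (mean 3.83% ± 1.85, SD). The highest male was from the Amphetamine group and the lowest from the Saline group. The means differed by -0.969 points (95% confidence interval -3.31 to 1.37), and in the region after the start (chr5:35280001-35285000) it was the females that spread more, from 12.1% to 25.5% against 17.9% to 21.8% in males. The differences in spread were not tested. Upstream of Adrb3 (chr8:27230001-27235000) females were at 28.5% ± 14.5 and males at 44.6% ± 10.6, a difference of -16.1 points (interval -32.8 to 0.582, limma unadjusted p = 0.0570, adjusted p = 0.899). This region and the Adrb3 gene also overlap the gene Gm45470. The Adrb3 gene itself was at 3.54% ± 3.27 and 4.05% ± 2.69. Adrb1 was at 2.11% ± 1.73 and 2.29% ± 2.77 as a gene, a difference of -0.185 points (interval -3.51 to 3.14).

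The remaining 5000 bp regions were those over the starts and those of smallest p for each gene. Over the starts, Adra2a was at 2.09% ± 0.855 in Amphetamine and 1.84% ± 1.11 in Saline mice, Adra2c at 5.29% ± 0.564 and 5.62% ± 1.85, and Adrb1 at 1.95% ± 1.98 and 2.51% ± 2.25. Adra1d ran from 2.92% to 6.41% in Amphetamine and from 1.80% to 8.61% in Saline mice. At Adrb3 the start region had the values of the gene. The last-exon region of Adra1d (chr2:131545001-131550000) was at 13.3% ± 6.62 in Amphetamine and 19.2% ± 6.88 in Saline mice (limma unadjusted p = 0.178). Adra1b had its smallest treatment p in an intron (chr11:43805001-43810000), at 72.2% ± 0.657 and 66.2% ± 8.04 (limma unadjusted p = 0.132). Its smallest p between the sexes was in another intron (chr11:43780001-43785000), at 68.0% ± 17.0 in females and 46.4% ± 21.9 in males (limma unadjusted p = 0.0815). The Adra2c start region was at 4.56% ± 0.692 in females and 6.56% ± 1.17 in males (limma unadjusted p = 0.136). None of these had an unadjusted p under 0.05.

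**Figure D5:**
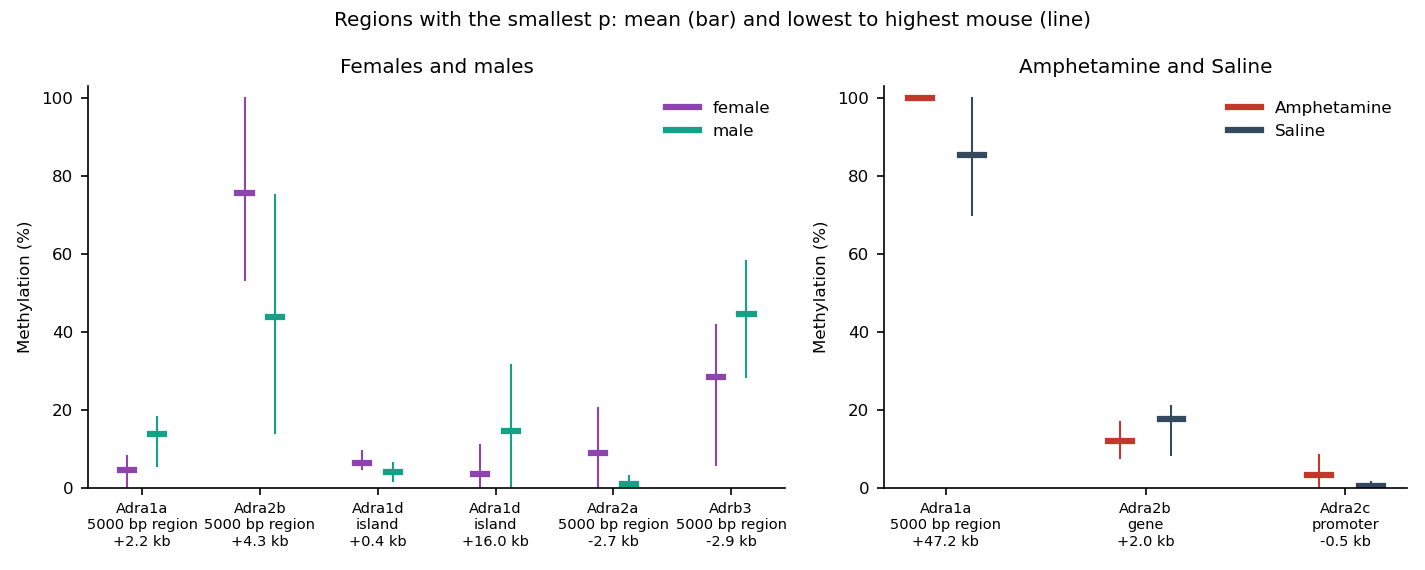
Methylation in percent of the receptor regions with the smallest p, those with an unadjusted p under 0.06 between females and males (left) and under 0.08 between Amphetamine and Saline mice (right). Thick bars are group means, thin lines run from the lowest to the highest mouse, and the distance of each region's centre from the gene start is given in kb. In each region the ranges of the groups overlap or meet.

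The remaining genes of noradrenaline signalling were counted from lists. Of 11 genes that make, store, take up or break down noradrenaline, 8 had a promoter in the table, of which 4 were higher and 4 lower in Amphetamine mice and 1 had an unadjusted p under 0.05, against 4.11% of all promoters. That gene was Slc18a2, the vesicular monoamine transporter, at 4.13% ± 0.646 (SD, n = 5) in Amphetamine and 0.224% ± 0.369 (SD, n = 6) in Saline mice. Its ranges were apart, from 3.16% to 4.63% and from 0% to 0.870%, with a difference of 3.91 points at mean coverages of 322 and 260 (limma unadjusted p = 1.21e-05, adjusted p = 0.0591). The adjusted p of Slc18a2 ran from 0.0124 to 0.486 over the alternative settings. Slc6a2, the noradrenaline transporter of the plasma membrane, was at 86.8% ± 14.2 (SD, n = 5) and 71.8% ± 35.4 (SD, n = 3) at its promoter (limma adjusted p = 0.958). Dbh, the enzyme that makes noradrenaline, had no promoter in the table and was at 80.6% ± 9.22 and 83.1% ± 16.7 as a gene (limma adjusted p = 0.995).

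Among G proteins and effectors downstream of the receptors, 13 of 32 promoters were higher and 19 lower in Amphetamine mice. Only 1 had an unadjusted p under 0.05, against 4.11% of all promoters. It was Gnas, the imprinted gene of the Gs alpha subunit, at 38.2% ± 16.7 against 71.7% ± 7.31, with a highest Amphetamine mouse at 60.2% that lay just inside the Saline range (limma unadjusted p = 0.000951, adjusted p = 0.702). The window read is that of the annotated gene start (chr2:174282820-174284819). Which Gnas transcripts start there, and whether that of Gs alpha does, was not examined. Among desensitisation genes 7 of 13 were higher and 5 lower, and Akap12, a kinase-anchoring protein, was at 6.99% ± 3.01 against 2.81% ± 3.20 (limma unadjusted p = 0.0478, adjusted p = 0.958). Between the sexes the promoters under an unadjusted 0.05 in these lists were 0 of 8, 1 of 32 (Adcy1) and 1 of 13 (Adrbk2). The share was 6.07% over all promoters and 4.67% over autosomal ones. No adjusted p between the sexes was under 0.05 in these lists. As whole genes 0 of 11 supply genes, 0 of 34 G proteins and effectors and 0 of 14 desensitisation genes had an unadjusted p under 0.05 for treatment. Over all genes that share was 4.38%. Between the sexes these whole-gene counts were 0 of 11, 1 of 34 and 0 of 14, against 6.5% of all genes. Of the other monoamine and acetylcholine receptor families, 0 of 5 dopamine, 0 of 13 serotonin and 0 of 3 muscarinic receptor promoters had an unadjusted p under 0.05 for treatment. Over all promoters that share was 4.11%. Between the sexes the counts were 0 of 5, 2 of 13 (Htr3b and Htr2c) and 0 of 2, against 6.07% of all promoters. Htr2c lies on the X chromosome, at 39.1% in females and 10% in males. As whole genes 1 of 5 muscarinic receptors (Chrm4) had an unadjusted p under 0.05 for treatment, against 4.38% of all genes. Chrm4 was at 88.1% ± 5.46 in Amphetamine and 64.8% ± 22.5 in Saline mice. For sex 2 of 5 dopamine receptors (Drd5 and Drd3) had one, against 6.5% of all genes and 5.53% of autosomal ones. These 3 genes were named after their values were seen. The other whole-gene counts were 0 of 5 dopamine and 0 of 14 serotonin receptors for treatment, against 4.38% of all genes. For sex they were 0 of 14 serotonin and 0 of 5 muscarinic receptors, against 6.5% of all genes. In Saline mice the median promoter was at 1.83% for adrenergic, 6.45% for dopamine, 6.93% for serotonin and 5.42% for muscarinic receptors. As whole genes the medians were 6.71%, 37.4%, 57.2% and 64.8% in the same order, values that are given side by side without a test.

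Methylation does not measure expression, and cell-type markers were used only to look at the tissue. In Saline mice the median promoter was at 57.2% for 7 of 11 acinar genes, 3.82% for 4 of 6 islet genes, 80.2% for 2 immune genes, 30.1% for 3 sympathetic and glial genes and 55% for 3 endothelial genes, while 0 of 3 liver genes had a promoter. Single promoters ran from 3.56% to 90.3% in the acinar, from 1.71% to 90% in the islet and from 7.5% to 94.1% in the sympathetic and glial list. For treatment 0 of these promoters had an unadjusted p under 0.05, against 4.11% of all promoters. For sex 2 of the 3 endothelial promoters did, against 6.07% of all promoters and 4.67% of autosomal ones. None of the endothelial promoters passed an adjusted p of 0.05 for sex. All 3 endothelial promoters were lower in females, with a median difference of -39.6 points, and their median difference for treatment was 21.7 points, 2 being higher in Amphetamine mice. As whole genes 1 of the 3 endothelial genes had an unadjusted p under 0.05 for treatment, against 4.38% of all genes. These values do not establish the labelled tissue. Their part in the receptor values was not tested.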

How the data were processed

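RRBS libraries of 11 pancreata were cut with MspI and TaqI and read as single-end 50-base reads. The authors aligned them with Bismark (NextFlow methylseq) to mm10 and summarised regions with RnBeads. The submitters' processing notes also name methylKit and limma, and versions of Bismark, methylKit and limma are not given in the sources used here. Each methylation value is the authors' mean fraction over those mice of a group that had reads, printed as percent. SDs, lowest and highest fractions and numbers of mice without reads were taken as deposited. The coverage (a signal) is the authors' mean over mice, without correction for depth, and was taken to be the total over a region's CpG sites, as its definition is not given in the sources used here. The deposited differences, quotients, p-values, adjusted p-values and combined ranks of the authors were not used.

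From these means, SDs and numbers of mice, limma's moderated test (limma 3.58.1 in R 4.3.3) was rebuilt on the fraction, two-sided and with no covariate. It covered every region with at least 2 mice with reads in each group, with Benjamini-Hochberg adjustment over each table. Values per mouse were not analysed here, so that the joint effect of sex and treatment was not tested. Confidence intervals are at 95%. On simulated data for 21012 promoters (Amphetamine against Saline), 82.5% of 200 promoters shifted by 4 SD passed an adjusted p of 0.05, and 4.83% of the unchanged ones passed an unadjusted p of 0.05. The noise was normal with the same SD in both groups, and the shifted promoters were all of intermediate methylation. The receptor promoters lie below that range of methylation, so that the share of 82.5% does not apply to them. CG, CCGG and TCGA were counted in GRCm38.

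The 8 genes and the lists were chosen with earlier results of these data known. All 8 genes were named, with their start region, their regions of smallest p and those with an unadjusted p under 0.05. From the lists (noradrenaline supply, G proteins and effectors, desensitisation, dopamine, serotonin and muscarinic receptors) the promoters with an unadjusted p under 0.05 were named, with Dbh and Slc6a2. Chrm4, Drd5 and Drd3 were added after their values were seen. Markers of acinar, islet, immune, sympathetic and glial, endothelial and liver cells were counted. Alternatives were reads in all 11 mice, a mean coverage of at least 10 or 30, a trended or robust prior, autosomes only, leaving out 1 mouse, and other overlap rules. Python 3.11.15 with pandas 2.3.3, numpy 2.4.6 and scipy 1.17.1 was used.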

Additional observations from a re-analysis of the deposited data

Results flagged for a closer look

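In 14 receptor regions a mouse stood apart from the rest of its group by Dixon's criterion, in 19 of 218 groups tested. The criterion's chance rate of about 1 in 20 groups holds for exact gaps and normally distributed values. Here the gaps were lower bounds, and in some flagged groups the other mice were tied at an end of the scale. The chance rate under these conditions is not known, so that the count shows neither an excess nor a lack of such mice. Values of single mice were not analysed here. The smallest gap that the deposited mean, SD, lowest and highest value allow was used, and treatment and sex groups hold the same mice. At the Adra1a promoter 1 mouse at 100% stood apart among Saline mice and among males. At the Adra1b island in the last coding exon 1 mouse at 11.4% stood apart among Saline mice and among females. At the Adra1d island in the last exon the highest Amphetamine mouse was at 18.9%. At the Adrb1 promoter the highest Amphetamine mouse was at 10.2% and the highest female at 5.50%. Over the Adra2a gene the highest Saline mouse was at 4.49%, and over the Adra2b gene the lowest Saline mouse was at 8.40%. At the 3′ end of Adra2b (chr2:127365001-127370000) the lowest Saline mouse was at 14.0%.

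The remaining cases were mice below the others in highly methylated 5000 bp regions. In Adra1a (chr14:66655001-66660000) the lowest female was at 50%. In Adra1b the lowest Saline mouse was at 0% from chr11:43790001, at 19.9% from chr11:43820001, at 84% from chr11:43895001 and at 76.7% from chr11:43900001, where the lowest male was also at 76.7%. The lowest female was at 0% from chr11:43865001 and at 66.7% from chr11:43895001, and the lowest male was at 67.7% from chr11:43805001. The Adra1b regions at 0% had mean coverages of 5.83 in Saline mice and 7 in females.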

How the results depend on the processing

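For 116 pairs of receptor region and comparison, all 662 values under the alternatives stayed on the same side of an adjusted p of 0.05, the smallest being 0.629. Counts over all regions moved more, and the cause was not tested. With treatment, 4 promoters passed by limma, and 0 did with reads in all mice, with coverage of at least 10 or of at least 30, beside 828, 926 and 802 at an unadjusted p under 0.05. Genes went from 3 to 0 under the same filters, beside 1010, 1063 and 984 unadjusted, and to 5 with the trended prior. Islands went from 2 to 0 with reads in all mice, beside 531 unadjusted, and to 1 with either coverage filter or the trend. Tiles of 5000 bp went from 48 to 1, 4 and 2 under the filters and to 30 with the trend. Between the sexes, autosomes alone left 3 of 137 promoters, 1 of 96 genes, 1 of 161 islands and 72 of 196 tiles, and the filters left 78, 81 and 90 tiles. Of the receptor regions, 2 islands in place of 1 had an unadjusted p under 0.05 between the sexes with reads in all mice. For tiles that count was 1 in place of 2 at a coverage of at least 30 and 4 with the trend. Tiles wholly inside a gene or its promoter numbered 22 of 35.

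Leaving out 1 mouse gave bounds on the difference that changed its sign in 9 of 23 promoters, genes and islands for treatment and in 5 of 23 for sex. No refit without a mouse was run, because values per mouse were not analysed here. At the Adra1a promoter the mean coverage was 6.2 in Amphetamine mice, and several sparse regions of Adra1a, Adra1b and Adra2b had mice with coverage under 10.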
